A study of Homo sapiens with 18 samples.

Results

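The data were read for 10 human genes of the ERK feedback system across the study: the dual-specificity phosphatases DUSP1, DUSP4, DUSP5, DUSP6, DUSP8, DUSP10 and DUSP16 and the Sprouty-family genes SPRY2, SPRY4 and SPRED1. They were chosen by symbol, and each matched 1 Ensembl gene among the 63677 in the count table. The cells were NCI-H1299, a human lung cancer line that carries activated NRAS. Each of the 6 groups had 3 libraries of total RNA from cells at passage 12 to 14, grown in low-glucose DMEM with 10% FBS. The groups were control cells labelled Ctl, cells given an empty vector (EV), and cells given a plasmid for TBX2, TBX3, TBX4 or TBX5. These are the T-box transcription factors whose re-expression the study set out to examine. The TBX3 plasmid was human and HA-tagged in pCGN, the TBX5 plasmid was mouse Tbx5 with an HA tag in pCGN, and the TBX2 and TBX4 plasmids were human and Flag-tagged in another vector. Tag, vector and T-box gene can therefore not be told apart between plasmids of different design, and the backbone of EV and the handling of Ctl are not given in the sources used here. Transfection, by lipofection, was transient and reached fewer than all cells, so each library measured transfected and untransfected cells together. The time between transfection and RNA isolation is likewise not given for these libraries.

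ERK is the last kinase of the RAS, RAF and MEK cascade that carries growth factor signals to the nucleus. Its activity raises the transcription of its own inhibitors, which is why these genes are widely read as a record of past pathway activity. DUSP1, DUSP4 and DUSP5 are inducible nuclear phosphatases, of which DUSP5 is selective for ERK. DUSP6 removes phosphate from ERK in the cytoplasm. DUSP8, DUSP10 and DUSP16 act mainly on the stress kinases JNK and p38. Sprouty and SPRED proteins work upstream, where they hold back the activation of RAS and RAF by receptor tyrosine kinases.

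Library totals ran from 7365221 to 11743179 counts, with a median of 9167758, so that 3 counts, taken as the floor of detection, equalled 0.256 to 0.407 CPM (counts scaled to library size) before TMM. The feature with the most counts, ENSG00000266658, held between 10.7% and 53.5% of a library. Levels are therefore given as CPM on library sizes scaled by TMM, whose factors ran from 0.672 to 1.34. Of the 9 lung epithelium markers, KRT8 and KRT18 reached 119 counts or more in every library, whereas KRT7 had at most 28 counts in any, NAPSA and SFTPB at most 10 and NKX2-1, SFTPC, EPCAM and CDH1 at most 4. Against controls, KRT8 and KRT18 fell with TBX2 and TBX3 and KRT7 rose with TBX2. Of these 3 tested keratins, 1 was called lower with TBX4 and 1 higher with TBX5. All 4 mesenchymal markers were called with TBX2 (VIM and CDH2 lower, FN1 and ZEB1 higher) and 2 of 4 with each other TBX. Of all tested genes, 32.6%, 14.9%, 13% and 12.7% were called with TBX2 to TBX5. The part of these shifts in the members' results was not tested. All 5 fibroblast and 4 leukocyte markers had at most 9 counts. The library used as TBX4 replicate c has a title with the number of the TBX4 libraries but the ending TBX5. It held 85197 counts of TBX4 and 1 count of TBX5, and TBX4 changes of the members are also given without it where they were called. No label says that replicates came from separate cultures, so p-values measure the spread between these libraries, which may be technical. In bulk RNA, fewer cells expressing a gene and less RNA per cell cannot be told apart.

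In control cells most of the genes were well expressed. Per exon length, the mean level over the 6 Ctl and EV libraries was highest for SPRY4, at 11.5 FPKM (CPM divided by kilobases of exon). DUSP5 followed at 10.2 FPKM, SPRY2 at 9.08, DUSP6 at 7.44 and SPRED1 at 5.22. DUSP1 stood at 3.90 FPKM, DUSP16 at 3.06 and DUSP10 at 2.23. DUSP8 was near the floor at 0.0717 FPKM, and DUSP4 had 0 counts in all 6 controls. Of the 10 genes, 8 exceeded 5 counts in 10 or more of the 18 libraries and were among the 15576 genes tested. DUSP4 and DUSP8 were not.

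**Figure D1:**
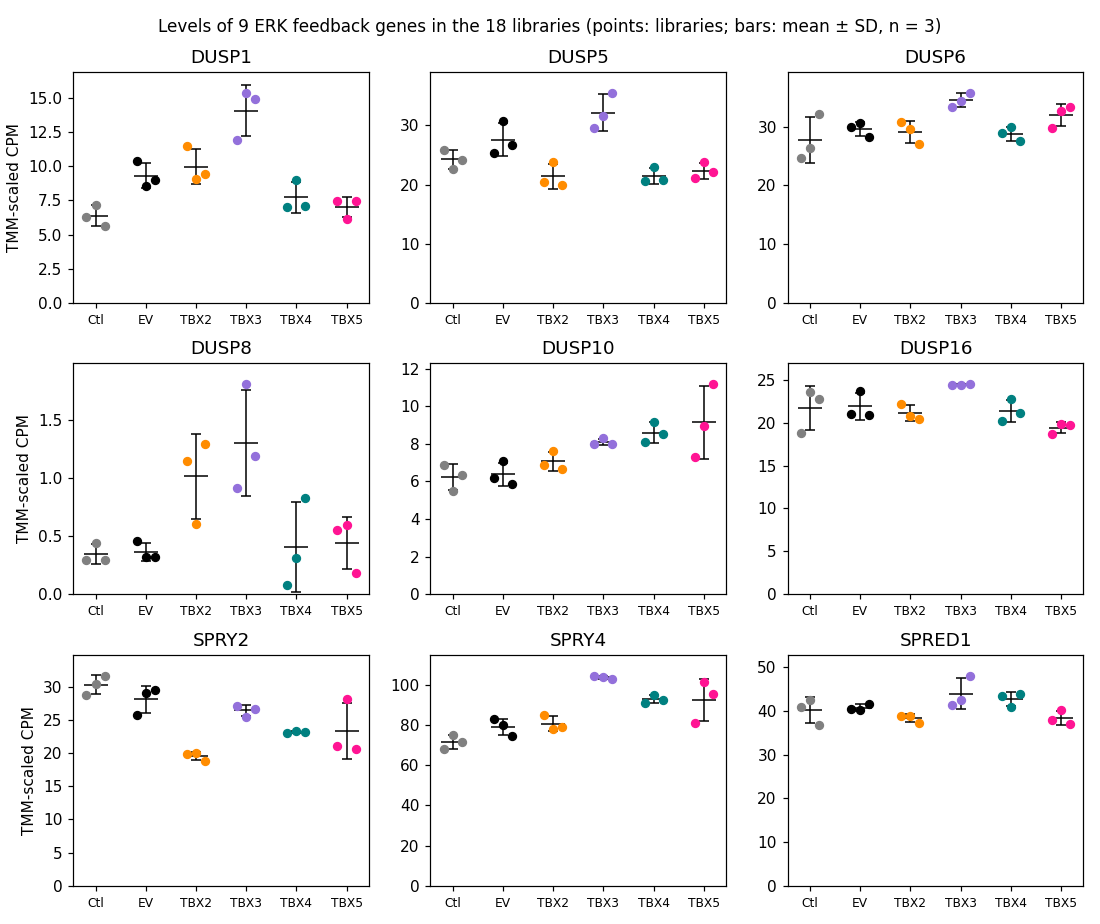
TMM-scaled CPM of 9 ERK feedback genes in each of the 18 libraries, by group, with the mean and SD of 3 libraries. DUSP1, DUSP5 and SPRY4 were highest on average in the TBX3 libraries, and SPRY2 was lowest in the TBX2 libraries, between 18.8 and 20.0 CPM.

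Each TBX group was compared with the 6 pooled controls. The study also compared each TBX separately with control NCI-H1299 cells, but it does not say that Ctl and EV were pooled. With TBX3, 5 of the 8 tested genes rose, DUSP1, DUSP5, DUSP6, DUSP10 and SPRY4. Over all 15576 tested genes, 14.9% were called in this comparison, and 8.47% were called higher. With TBX2, 2 genes fell, DUSP5 and SPRY2, where 32.6% of all genes were called and 15.6% were lower. With TBX4, DUSP10 and SPRY4 rose and DUSP5 and SPRY2 fell, 4 of 8 genes against 13% of all (6.97% higher, 6.07% lower). With TBX5, DUSP10 and SPRY4 rose and SPRY2 fell, 3 of 8 against 12.7% (6.55% higher, 6.12% lower). A gene was called where edgeR's quasi-likelihood test gave a p under 0.1 after Benjamini-Hochberg adjustment over all tested genes. The median log2 fold change of the 8 genes was 0.30 with TBX3, where that of all tested genes was -0.0021. It was -0.004 with TBX2, -0.0089 with TBX4 and -0.12 with TBX5. By DESeq2 the calls for TBX2 to TBX5 were 2, 4, 4 and 3 of 8. Library totals, used in place of TMM, left 1, 0, 2 and 0 calls and moved the median of all genes to 0.01, -0.08, 0.25 and -0.31. Relative to that median, DUSP1 and SPRY4 still stood at 0.83 and 0.46 with TBX3, and SPRY2 stood at -0.57 with TBX2. The 4 comparisons share the same 6 controls, so a direction seen in several of them is not independent evidence.

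**Figure D2:**
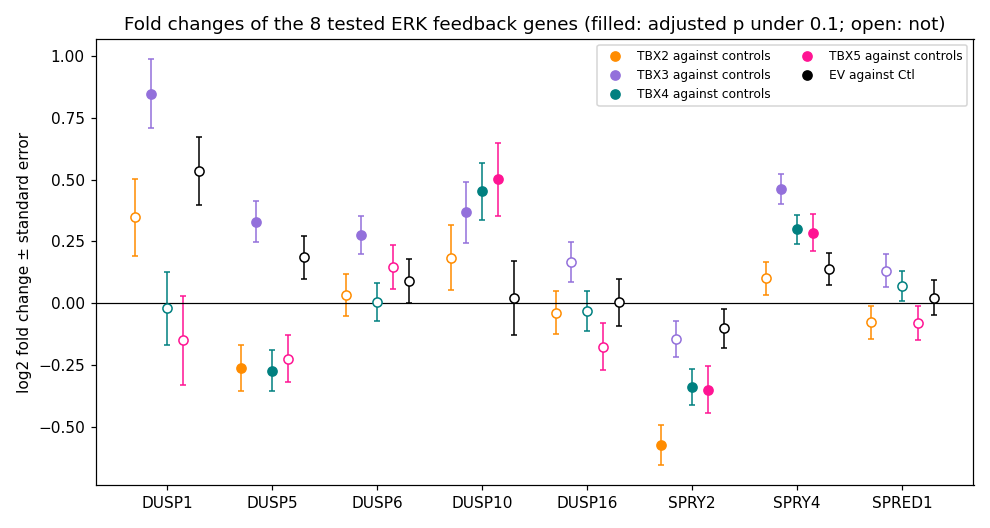
Log2 fold changes with standard errors of the 8 tested genes in the 4 TBX comparisons with pooled controls and in EV against Ctl, filled where the adjusted p was under 0.1. SPRY4 and DUSP10 lie above 0 in all 4 TBX comparisons and SPRY2 below 0 (by library totals, SPRY4 with TBX5 was -0.05, where the median of all genes was -0.31), while DUSP1 and DUSP5 lie on both sides.

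DUSP1 (ENSG00000120129) lies on the minus strand of chromosome 5, from 172195099 to 172198198 of GRCh37, and encodes a phosphatase induced within minutes to hours by growth factors and stress. Its RefSeq promoter window is shown because DUSP1 had the largest fold change of the tested genes and carries the elements through which it is classically induced. The window runs from 250 bases before to 50 after the start, on the minus strand at chr5:172771146-172771445 of GRCh38.p14. Capitals mark every match, on either strand, to TGACG (the half-site of the cAMP response element, CRE), TGACGTCA (the whole CRE), TGANTCA (AP-1), CGGAAG (ETS), GGTGTG (the T-box core), GGTGTGA (its longer form) and the CArG box.
DUSP1: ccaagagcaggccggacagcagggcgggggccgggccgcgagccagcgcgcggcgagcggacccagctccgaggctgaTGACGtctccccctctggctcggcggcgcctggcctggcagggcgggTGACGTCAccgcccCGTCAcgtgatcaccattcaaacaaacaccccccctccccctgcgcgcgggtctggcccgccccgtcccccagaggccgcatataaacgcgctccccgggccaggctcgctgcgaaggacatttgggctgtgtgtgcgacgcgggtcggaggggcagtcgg
A whole CRE stood from 125 to 118 bases before the start (positions -125 to -118), which accounts for 2 of the 4 half-site matches. A TATAAA motif stood at -30 to -25. It was left in lower case, as were the GC boxes (GGGCGG) and E-boxes (CACGTG) that were also searched. A whole CRE was found in 1.85% of 35116 promoter windows of the same length and TATAAA in 11.5%. No T-box core was found in this window, which says only that these letters are not in it.

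The DUSP1 level was 6.27, 7.19 and 5.65 CPM in Ctl replicates a, b and c and 10.4, 8.59 and 8.999 CPM in the EV replicates. The TBX2 replicates had 11.5, 9.06 and 9.42 CPM and the TBX3 replicates 11.9, 15.4 and 14.9 CPM. With TBX4 the values were 7.05, 9.03 and 7.13 CPM, and with TBX5 they were 7.43, 6.15 and 7.44 CPM. Every TBX3 library thus lay above every control library, while the TBX4 and TBX5 libraries lay within the range of the controls. Of all tested genes, 8.38% lay wholly above the controls with TBX3. Against the pooled controls, DUSP1 was higher with TBX3 by a log2 fold change of 0.85 (standard error 0.14, adjusted p = 0.0002546 in edgeR's quasi-likelihood test). It stayed called with each of the 9 libraries left out in turn, at 0.77 to 0.94. With TBX2 its log2 fold change of 0.35 had an adjusted p of 0.1073 in the same test.

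The mean DUSP1 level was higher in EV than in Ctl, but the difference was not called. Its log2 fold change was 0.53 (standard error 0.14, unadjusted p = 0.0007449, adjusted p = 0.1568 in edgeR's quasi-likelihood test). In that comparison 0 of the 8 genes were called by edgeR's test or by DESeq2, and DUSP1, DUSP5 and SPRY4 had an unadjusted p under 0.05. Of all tested genes, 0.385% were called. DUSP1 alone was called there when no filter on low counts was set (adjusted p = 0.07077). The size of each DUSP1 difference therefore depended on the control. With TBX3 it was 0.61 against EV alone (adjusted p = 0.004877) and 1.14 against Ctl alone (adjusted p = 1.978e-05), called both times by edgeR's test. With TBX2 it was 0.11 against EV (adjusted p = 0.613) and 0.64 against Ctl (adjusted p = 0.006294 in edgeR's test). With TBX4 it was -0.26 and 0.28, and with TBX5 it was -0.39 and 0.15, none of them called.

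**Figure D3:**
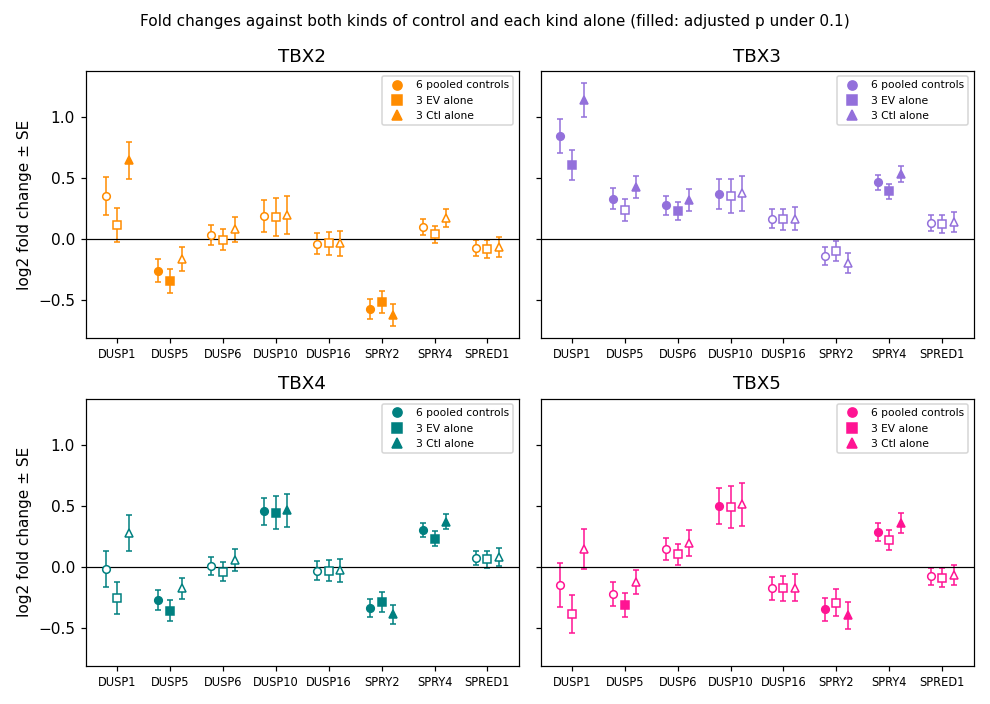
Log2 fold changes with standard errors of the 8 tested genes in each TBX group against the 6 pooled controls, the 3 EV libraries alone and the 3 Ctl libraries alone, filled where the adjusted p was under 0.1. DUSP1 shifts by about the EV-to-Ctl difference of 0.53 between the 2 kinds of control, while DUSP10 and DUSP16 hardly move.

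DUSP5 (ENSG00000138166; chromosome 10, 112257665 to 112271291 of GRCh37, plus strand) moved in both directions. It read 25.9, 22.6 and 24.2 CPM in the Ctl and 25.4, 30.8 and 26.6 CPM in the EV replicates. The TBX3 replicates had 29.5, 31.5 and 35.5 CPM. In the other groups it had 20.4, 23.8 and 20.0 CPM with TBX2, 20.6, 23.0 and 20.8 CPM with TBX4, and 21.1, 23.8 and 22.1 CPM with TBX5. No group was wholly outside the controls, since EV replicate b exceeded TBX3 replicate a and Ctl replicate b fell below a library of each other TBX group. Against pooled controls the log2 fold change was 0.33 with TBX3 (standard error 0.08, adjusted p = 0.01273), -0.26 with TBX2 (0.09, adjusted p = 0.0428) and -0.27 with TBX4 (0.08, adjusted p = 0.03751), by edgeR's quasi-likelihood test. With TBX5 it was -0.23, which missed the threshold (adjusted p = 0.1581 in edgeR's test). The TBX5 fall was called against EV alone (-0.31, adjusted p = 0.07733) and not against Ctl alone (-0.13, adjusted p = 0.5216 in edgeR's test). None of the calls against pooled controls held for every library or control. Without TBX3 replicate c the adjusted p in edgeR's test was 0.1755, without TBX2 replicate a or c it was 0.1758 or 0.158, and without TBX4 replicate a or c it was 0.1677 or 0.1325. Against EV alone the TBX3 rise was not called (0.24, adjusted p = 0.1111). Against Ctl alone neither the TBX2 nor the TBX4 fall was called (adjusted p = 0.2677 and 0.2401 in edgeR's test). The annotation holds 2 named pseudogenes of DUSP5, and the effect of reads shared with them was not tested.

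DUSP4 (ENSG00000120875; chromosome 8, 29190581 to 29208201 of GRCh37), the close relative of DUSP1 in the nucleus, was all but absent. It had 1 count in TBX3 replicate b, TBX4 replicates a and b and TBX5 replicate a, and 0 counts in the other 14 libraries. All of these lie under the floor of 3 counts, so no fold change is given.

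DUSP6 (ENSG00000139318; chromosome 12, 89741012 to 89746278 of GRCh37, minus strand), the cytoplasmic ERK phosphatase, was called with TBX3 and with no other plasmid. The Ctl replicates held 24.6, 26.4 and 32.2 CPM and the EV replicates 29.9, 30.7 and 28.3 CPM. With TBX3 the level was 33.4, 34.4 and 35.8 CPM, above every control library by a small margin (8.38% of all tested genes were wholly above). It was 30.8, 29.6 and 27.1 CPM with TBX2, 28.9, 29.9 and 27.5 CPM with TBX4 and 29.8, 32.7 and 33.3 CPM with TBX5, all overlapping the controls. The TBX3 change was 0.28 on the log2 scale (standard error 0.08, adjusted p = 0.02327 in edgeR's quasi-likelihood test). It held against EV alone (0.23, adjusted p = 0.06773) and Ctl alone (0.32, adjusted p = 0.04354), and was lost without TBX3 replicate c (0.24, adjusted p = 0.1348 in edgeR's test). An antisense gene, ENSG00000274021, overlaps 28.6% of the exon bases of DUSP6. The counting is not stated to use strand, so reads of the pair cannot be told apart.

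Among the phosphatases of JNK and p38, DUSP10 (ENSG00000143507; chromosome 1, 221874766 to 221915431 of GRCh37, minus strand) was called in 3 of the 4 TBX comparisons. It measured 6.86, 5.50 and 6.35 CPM in Ctl and 6.17, 7.08 and 5.87 CPM in EV. The TBX3 replicates had 7.99, 8.30 and 8.01 CPM, the TBX4 replicates 8.09, 9.19 and 8.52 CPM and the TBX5 replicates 7.32, 8.93 and 11.2 CPM. All 9 of these libraries were above all 6 controls, whereas TBX2, at 6.89, 7.65 and 6.66 CPM, overlapped them. Of all tested genes, 8.38%, 6.84% and 7.48% lay wholly above the controls with TBX3, TBX4 and TBX5. The fold change was 1.29 with TBX3, 1.37 with TBX4 and 1.42 with TBX5, or 0.37, 0.45 and 0.50 on the log2 scale (standard errors 0.12, 0.11 and 0.15). Their adjusted p-values in edgeR's quasi-likelihood test were 0.05458, 0.01286 and 0.03821. The TBX4 rise was called with each control alone and with every library left out, TBX4 replicate c included (0.46, adjusted p = 0.03651). The TBX3 and TBX5 values were as large against either control alone, at 0.35 to 0.51, but were not called there (adjusted p = 0.1069 to 0.1344 in edgeR's test). Without TBX5 replicate c the TBX5 value was 0.34 (adjusted p = 0.261 in edgeR's test). The TBX3 call was lost without Ctl replicate b, EV replicate c or any of the 3 TBX3 libraries, at log2 values of 0.33 to 0.40 over all libraries left out. It was also not made by DESeq2 (0.36, adjusted p = 0.1428) or by edgeR's test without a filter (0.35, adjusted p = 0.1552).

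DUSP16 (ENSG00000111266; chromosome 12, 12626216 to 12715797 of GRCh37, minus strand) was called against controls in 0 of the 4 TBX comparisons, at an unadjusted p under 0.05 in none of them, and in none by DESeq2. Its TBX3 libraries, at 24.4, 24.4 and 24.5 CPM, were just above the highest control at 23.7 CPM (8.38% of all tested genes were wholly above). That difference was 0.17 on the log2 scale (standard error 0.08, adjusted p = 0.2108 in edgeR's quasi-likelihood test). With TBX5 the values were 18.6, 19.8 and 19.7 CPM, and of the TBX pairs the comparison of TBX3 with TBX5 was called (0.34, adjusted p = 0.04061 in edgeR's test).

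DUSP8 (ENSG00000184545; chromosome 11, 1575281 to 1593501 of GRCh37, minus strand) was counted too rarely to pass the filter. Its promoter window, chr11:1572222-1572521 of GRCh38.p14 on the minus strand, is shown because it held a pair of whole CREs. Capitals mark the same motifs as above.
DUSP8: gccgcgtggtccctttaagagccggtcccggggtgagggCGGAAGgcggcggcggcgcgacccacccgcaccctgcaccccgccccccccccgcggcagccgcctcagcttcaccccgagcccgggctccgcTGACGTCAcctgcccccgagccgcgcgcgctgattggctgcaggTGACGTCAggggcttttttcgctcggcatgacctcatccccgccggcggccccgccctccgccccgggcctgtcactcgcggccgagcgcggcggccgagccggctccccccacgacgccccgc
The CREs stood at -118 to -111 and -74 to -67, and an ETS match stood at -211 to -206. DUSP8 and DUSP1 were the only members with a whole CRE among the 8 that had a RefSeq window. DUSP4 and DUSP5 had no RefSeq window, so they were not searched. Any bearing of these motifs on the levels was not tested.

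Counts of DUSP8 were 3, 5 and 3 in Ctl and 4, 3 and 5 in EV. They were 10, 6 and 8 with TBX2 and 7, 12 and 17 with TBX3. With TBX4 they were 1, 4 and 9, and with TBX5 they were 5, 3 and 1. All 6 TBX2 and TBX3 libraries had more counts than any control. Of the tested genes, which leave DUSP8 out, 12.9% and 8.38% lay wholly above the controls with TBX2 and TBX3. In scaled terms the means were 1.02 ± 0.366 CPM with TBX2 and 1.31 ± 0.457 CPM with TBX3 (SD, n = 3). Controls had 0.356 ± 0.0744 CPM (SD, n = 6). In a fit without a filter, edgeR's quasi-likelihood test gave log2 fold changes of 1.39 with TBX2 (standard error 0.46, adjusted p = 0.0245) and 1.79 with TBX3 (0.41, adjusted p = 0.001051). With TBX4 (0.13), TBX5 (0.34) and EV against Ctl (0.02) it was not called there. These values rest on few counts, and the annotation names 5 pseudogenes of DUSP8. The share of all genes called in that fit is not given here.

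With TBX4 and TBX5, the Sprouty genes SPRY2 and SPRY4 were called in opposite directions. With TBX2 only SPRY2 was called, and with TBX3 only SPRY4. SPRY2 (ENSG00000136158, chromosome 13, 80910111 to 80915261 of GRCh37) and SPRY4 (ENSG00000187678, chromosome 5, 141689992 to 141706020 of GRCh37) are both on the minus strand. Their promoter windows are shown because of the opposite calls. The windows are chr13:80341077-80341376 and chr5:142324198-142324497 of GRCh38.p14, the first being that of the most upstream of 3 SPRY2 start sites.
SPRY2: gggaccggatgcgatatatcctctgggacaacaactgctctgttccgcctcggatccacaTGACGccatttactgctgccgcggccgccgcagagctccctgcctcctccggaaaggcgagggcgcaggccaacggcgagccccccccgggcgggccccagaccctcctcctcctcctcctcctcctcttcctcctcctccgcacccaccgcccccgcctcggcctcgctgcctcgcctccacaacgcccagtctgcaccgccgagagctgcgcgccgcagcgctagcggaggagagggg
SPRY4: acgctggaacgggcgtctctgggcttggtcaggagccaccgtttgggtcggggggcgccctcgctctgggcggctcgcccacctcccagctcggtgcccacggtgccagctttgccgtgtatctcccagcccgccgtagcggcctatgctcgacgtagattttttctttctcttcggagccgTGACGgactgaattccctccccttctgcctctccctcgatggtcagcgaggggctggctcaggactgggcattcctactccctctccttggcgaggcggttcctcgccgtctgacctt
Each had a single match to the capitalised motifs, a CRE half-site at -190 to -186 in SPRY2 and at -68 to -64 in SPRY4. Such a half-site was present in 24.6% of all windows. Neither window held the T-box core, which 16.8% of all windows held. Among the 11 windows of the 8 members, DUSP6 alone held a T-box core, at positions 29 to 34 after the start, and none held the longer form GGTGTGA (3.45% of all windows).

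SPRY2, which blocks receptor signals to RAS, was lower in cells given TBX2, TBX4 or TBX5. The Ctl replicates had 28.8, 30.4 and 31.6 CPM and the EV replicates 25.7, 29.0 and 29.5 CPM. SPRY2 fell to 19.9, 20.0 and 18.8 CPM with TBX2 and to 23.0, 23.4 and 23.2 CPM with TBX4. It was 21.1, 28.2 and 20.7 CPM with TBX5 and 27.1, 25.5 and 26.6 CPM with TBX3. Each TBX2 and TBX4 library lay below every control, while TBX5 replicate b sat among the controls. Of all tested genes, 11.6% lay wholly below the controls with TBX2 and 5.74% with TBX4. The TBX2 level was 0.672 of the control level, a log2 fold change of -0.57 (standard error 0.08, adjusted p = 1.344e-05 in edgeR's quasi-likelihood test). With TBX4 it was -0.34 (0.07, adjusted p = 0.002879), and -0.34 without TBX4 replicate c (adjusted p = 0.01493). The TBX2 and TBX4 falls were called against EV alone and Ctl alone and with every library left out. By library totals the TBX4 value was -0.07 and was not called (adjusted p = 0.7348 in edgeR's test), or -0.33 relative to the median of all genes. With TBX5 the value was -0.35 (0.10, adjusted p = 0.02516 in edgeR's test). That call was lost without TBX5 replicate a (adjusted p = 0.1605) or c (adjusted p = 0.148), and against EV alone (-0.30, adjusted p = 0.1271). The TBX3 value of -0.14 was not called (adjusted p = 0.2358).

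SPRY4, the most abundant of the members per exon length, was called higher with TBX3, TBX4 and TBX5. It measured 68.2, 75.2 and 71.3 CPM in Ctl and 82.8, 79.7 and 74.7 CPM in EV. The TBX3 libraries held 104, 104 and 103 CPM and the TBX4 libraries 91.0, 95.0 and 92.4 CPM. All were above every control, as were 8.38% and 6.84% of all tested genes with TBX3 and TBX4. With TBX5 SPRY4 was at 80.9, 101 and 95.3 CPM and with TBX2 at 84.9, 78.1 and 78.9 CPM, both overlapping EV. SPRY4 rose 1.38-fold with TBX3 (log2 0.46, standard error 0.06, adjusted p = 1.463e-05 in edgeR's quasi-likelihood test). The TBX4 rise was 1.23-fold (log2 0.30, standard error 0.06, adjusted p = 0.001648), and log2 0.31 without TBX4 replicate c (adjusted p = 0.007374). Both were called against each control alone and with every library left out. The TBX5 rise of 0.29 (standard error 0.07, adjusted p = 0.01826) was lost without TBX5 replicate b (0.22, adjusted p = 0.1327) and against EV alone (0.22, adjusted p = 0.1327 in edgeR's test), and was -0.05 by library totals. With TBX2 the value was 0.10 (adjusted p = 0.2924).

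SPRED1 (ENSG00000166068; chromosome 15, 38545037 to 38649450 of GRCh37, plus strand), which recruits the RAS inhibitor neurofibromin to the membrane, was not called in any TBX comparison with controls. Its 18 libraries spanned 36.9 to 48.0 CPM. The log2 fold changes against controls were -0.08, 0.13, 0.07 and -0.08, in the order TBX2 to TBX5. None had an unadjusted p under 0.05 in edgeR's quasi-likelihood test, and DESeq2 called none. The highest value, 48.0 CPM, came from TBX3 replicate c.

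The TBX groups were then compared with each other in a single fit of all 18 libraries. The controls were not part of these differences, but they entered the scaling and the spread. TBX2 and TBX3 differed most, with 6 of the 8 genes lower with TBX2 where 15.5% of all genes were called and 7.51% were lower. The log2 differences of TBX2 from TBX3 were -0.59 for DUSP5 (standard error 0.10, adjusted p = 0.0001097 in edgeR's quasi-likelihood test), -0.50 for DUSP1, -0.43 for SPRY2, -0.36 for SPRY4, -0.24 for DUSP6 and -0.21 for SPRED1. The last 2 were close to the threshold (adjusted p = 0.07717 and 0.07845 in edgeR's test), DESeq2 called 4 of the 8 genes, and 4 or 5 were called with any 1 TBX2 or TBX3 library left out. DUSP1 was 1.82-fold higher with TBX3 than with TBX4 (log2 0.86, standard error 0.13, adjusted p = 0.0001162) and 1.99-fold higher than with TBX5 (log2 1.00, standard error 0.15, adjusted p = 0.0001073 in edgeR's test). DUSP5 was higher with TBX3 than with TBX4 by 0.60 and than with TBX5 by 0.55. TBX3 exceeded TBX4 in 3 of 8 genes (DUSP1, DUSP5, DUSP6; 9.97% of all genes called, 5.95% higher) and TBX5 in 3 of 8 (DUSP1, DUSP5, DUSP16; 7.41%, 4.3% higher). Without TBX4 replicate c, DUSP1 and DUSP5 still differed between TBX3 and TBX4, by 0.81 and 0.58, and DUSP6 was not called (0.24, adjusted p = 0.1547 in edgeR's test). Between TBX2 and TBX4 the 1 gene called was SPRY4, lower with TBX2 by a log2 difference of -0.20 (adjusted p = 0.07772 in edgeR's test; 12.3% of all genes called, 5.61% lower), and it was not called without TBX4 replicate c. Between TBX2 and TBX5 it was DUSP1, higher with TBX2 by 0.50 (adjusted p = 0.05998 in edgeR's test; 12.1% of all called, 6.45% higher), which DESeq2 did not call.

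Between TBX4 and TBX5 no difference in a member was detectable at this depth. Here 0 of 8 genes were called by edgeR's quasi-likelihood test or DESeq2, and 0 had an unadjusted p under 0.05, against 0.539% of all genes called. The differences ran from -0.14 for DUSP6 to 0.15 for SPRED1 on the log2 scale. When the 6 groups were put in order of mean level for each tested gene, 40 pairs of neighbours arose. Of these, 1 was called, DUSP1 with TBX3 (14.1 ± 1.88 CPM) over TBX2 (9.98 ± 1.31 CPM; SD, n = 3 each), at a log2 difference of 0.50 (adjusted p = 0.01385 in edgeR's test). The other pairs of neighbours were not called. TBX3 was the highest group for DUSP1, DUSP5, DUSP6, DUSP16, SPRY4 and SPRED1, TBX5 for DUSP10 and Ctl for SPRY2.

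Genes whose log2 CPM followed a member most closely over the 18 libraries are given as a description, with Pearson's r over libraries that share groups and depth. For DUSP1 they were YOD1 (0.92), HIVEP2 (0.90) and FEM1B (0.89). For SPRY4 they were ZNF570 (0.95), SATB1 (0.87) and ZNF829 (0.86). For SPRY2 they were MAP3K3 (0.92), ITPRID2 (0.91) and LSS (0.91). Between the members themselves, r was 0.73 for SPRY4 with DUSP10, 0.71 for SPRY4 with DUSP6, -0.17 for SPRY4 with SPRY2 and 0.05 for DUSP1 with DUSP10.

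The rest of the pathway was read from lists chosen by function. Of the other Sprouty and SPRED genes, all 4 were tested. SPRY3 rose with TBX2, from 1.58 ± 0.302 CPM in controls (SD, n = 6) to 5.07 ± 0.888 CPM (SD, n = 3), a log2 fold change of 1.66 (standard error 0.20, adjusted p = 1.773e-06 in edgeR's quasi-likelihood test). Its values with TBX3, TBX4 and TBX5 were -0.06, 0.31 and 0.49, none called. SPRED2 rose with TBX3 by 0.26 (adjusted p = 0.04733 in edgeR's test), a call that held against EV alone (0.34) and not against Ctl alone (0.17, adjusted p = 0.3139). SPRY1 and SPRED3 were not called against controls. Of 3 further MAP kinase phosphatases, DUSP2 and DUSP7 were tested and not called with any TBX by edgeR's test, and DUSP9 had too few counts. Among 11 atypical dual-specificity phosphatases, which lack the kinase-binding domain, 8 were tested. Of these, 4 rose with TBX2, where 17% of all genes were called higher, and 2 with TBX3, where 8.47% were. DESeq2 called 3 and 1. DUSP19, which binds kinases of the JNK pathway, rose with TBX2 from 4.16 ± 0.616 CPM (SD, n = 6) to 7.15 ± 0.990 CPM (SD, n = 3), and DUSP28 rose by 0.51 on the log2 scale.

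**Figure D4:**
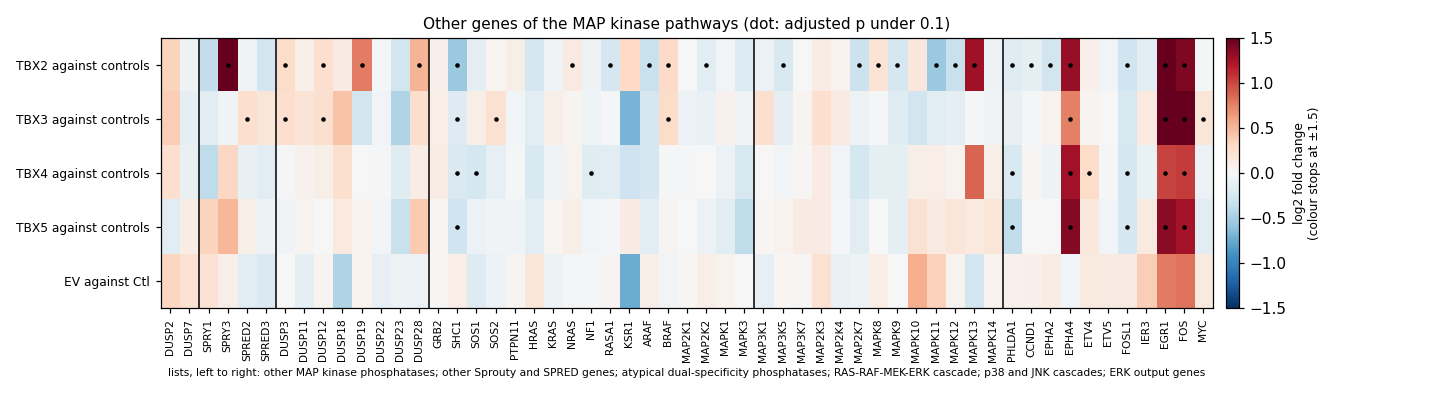
Log2 fold changes of the tested genes of 6 other MAP kinase lists (columns) in the TBX comparisons with pooled controls and in EV against Ctl (rows), with a dot where the adjusted p was under 0.1. EPHA4, EGR1 and FOS are higher and SHC1 is lower in all 4 TBX rows (by library totals, SHC1 with TBX4 was 0.05).

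The cascade from receptor to ERK was read next. Of 17 genes from GRB2 to MAPK3, all tested, 2 rose and 4 fell with TBX2, 2 rose and 1 fell with TBX3, 3 fell with TBX4 and 1 fell with TBX5. The shares of all genes called higher and lower were 17% and 15.6% with TBX2, 8.47% and 6.4% with TBX3, 6.97% and 6.07% with TBX4 and 6.55% and 6.12% with TBX5. DESeq2 called 3, 2, 3 and 1 of the 17 genes, in the order TBX2 to TBX5. SHC1, the adaptor that links receptors to GRB2 and SOS, was called lower in all 4 comparisons, with log2 fold changes of -0.56, -0.19, -0.21 and -0.29, in the order TBX2 to TBX5 (0.05 with TBX4 by library totals, or -0.20 relative to the median of all genes). Against Ctl alone, the TBX3 and TBX4 falls were not called (adjusted p = 0.1966 and 0.1109 in edgeR's quasi-likelihood test), while without TBX4 replicate c the TBX4 value was -0.18 and was called. Its control level was 113 ± 4.99 CPM (SD, n = 6), and it was 76.6 ± 5.59 CPM with TBX2 (SD, n = 3). BRAF rose with TBX2 and TBX3, by 0.29 and 0.27, while ARAF fell with TBX2 to a log2 fold change of -0.33 (adjusted p = 0.0756 in edgeR's test) that was not called by DESeq2 (adjusted p = 0.1023), against EV or Ctl alone (adjusted p = 0.1072 and 0.2096) or by library totals (adjusted p = 0.5098). Of 14 genes of the p38 and JNK cascades, 13 were tested, of which 2 rose and 5 fell with TBX2, against 32.6% of all genes called there. With TBX2, DESeq2 called 5 of the 13. By edgeR's test 0 were called with TBX3, TBX4 or TBX5, where 3, 3 and 2 had an unadjusted p under 0.05 and DESeq2 called 0. The most changed were MAPK13, which rose by 1.27 at a low level (1.15 ± 0.409 CPM with TBX2, SD, n = 3), and MAPK11, which fell by 0.56 but was not called against Ctl alone (-0.37, adjusted p = 0.2738 in edgeR's test). Both encode p38 kinases.

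ERK output genes, which the kinase is known to induce, did not move as one. Of the 11 tested, 3 rose and 4 fell with TBX2, 4 rose with TBX3, 4 rose and 2 fell with TBX4, and 3 rose and 2 fell with TBX5. Of all genes, 32.6%, 14.9%, 13% and 12.7% were called in these comparisons. DESeq2 called 7, 3, 5 and 4 of the 11. EGR1 and FOS, immediate early transcription factors, rose with every plasmid. With TBX4 the values were 1.02 for EGR1 and 1.04 for FOS (1.01 and 1.06 without TBX4 replicate c). By library totals FOS with TBX5 was 0.92 and was not called (adjusted p = 0.1169 in edgeR's test). In EV against Ctl they stood at 0.78 and 0.81, not called, as for DUSP1 (adjusted p = 0.139 and 0.2825 in edgeR's quasi-likelihood test). EPHA4, an ephrin receptor, also rose with all 4, by 1.30, 0.75, 1.26 and 1.38, from 1.03 ± 0.325 CPM in controls (SD, n = 6), although the TBX3 rise was not called against EV or Ctl alone (adjusted p = 0.1604 and 0.2196 in edgeR's test). FOSL1, an AP-1 subunit that accumulates under lasting ERK activity, had log2 fold changes of -0.30, -0.26 and -0.27 with TBX2, TBX4 and TBX5, all called. Those of PHLDA1, an ERK-induced gene, were -0.18, -0.23 and -0.36 with the same plasmids. By library totals both were slightly above 0 with TBX4 (0.01 and 0.02), where the median of all genes was 0.25. Against Ctl alone, FOSL1 was not called with TBX4 or TBX5 nor PHLDA1 with TBX2 (adjusted p = 0.1214, 0.3175 and 0.2419 in edgeR's test), and DESeq2 did not call FOSL1 with TBX5. Without TBX4 replicate c, FOSL1 with TBX4 was -0.23 and not called (adjusted p = 0.1409 in edgeR's test), while EPHA4 (1.21) and PHLDA1 (-0.30) were still called. The TBX3 values of -0.24 for FOSL1 and -0.11 for PHLDA1 were not called.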

How the data were processed

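The authors aligned the paired reads with STAR 2.3.0 to GRCh37 (Ensembl 75), counted them per gene with featureCounts 1.5.4 at default settings, and deposited raw counts without normalization or a filter. Groups and replicate letters came from the sample titles. The members and gene lists were chosen with earlier results of these data known. Symbols, positions and exon lengths came from GENCODE on GRCh37, and promoter windows from RefSeq on GRCh38.p14.

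The 15576 genes that exceeded 5 counts in 10 or more of the 18 libraries were tested in R 4.3.3 with the quasi-likelihood test of edgeR 4.0.16, TMM scaling and Benjamini-Hochberg adjustment, at a false-discovery rate of 0.1. The study used DESeq2 and describes the same count filter, but it reports fewer genes kept than the 15576 tested here. DESeq2 1.42.0 was run here as an alternative. Each TBX was compared with the 6 pooled controls in a fit of its own, EV with Ctl likewise, and TBX pairs in a single fit. A standard error was taken as the size of the log2 fold change divided by the root of its F statistic. CPM used TMM-scaled library sizes, and FPKM divided CPM by kilobases of exon. Reads carry no molecular identifiers, so the floor of 3 counts covers counting error only. Among genes outside the member list, those named were called in at least 3 TBX comparisons in the same direction or were the 2 most changed of their list. BRAF, SPRY1, SPRED3, DUSP2, DUSP7 and DUSP9 were named after their values were seen. In simulated data, 200 of 15576 genes were changed by a log2 fold of 1, with the same spread set for every gene. Of these, 81.5% were recovered in the TBX2 design (12.4% of calls false) and 72% in the EV design (8.86% false). Called changes of the tested members against pooled controls were all smaller than that, so recovery at their size was not measured. The count of DUSP14 was not used, since its symbol was not matched, and some genes are not reported here.

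The alternatives were DESeq2, its size factors, library totals, ENSG00000266658 left out or its share as a covariate, testing every counted gene, a minimum of 10 counts per library, EV or Ctl alone, 1 fit of all libraries, the pair of groups alone, the replicate letter as a block, an FDR of 0.05, and each library left out.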

Additional observations from a re-analysis of the deposited data

How the results depend on the processing

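Of the member fold changes computed under an alternative, 373 kept their direction and their side of the threshold with all libraries and 301 did so with 1 library left out, while 22 and 15 lost a call and 6 and 4 gained one. SPRY2 with TBX2 and DUSP10 and SPRY4 with TBX4 were called in every alternative run.

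Counts that changed little from the main result are mostly left out of this section. Scaling by library totals changed most. Genes called against controls fell to 1053 (TBX2), 35 (TBX3) and 91 (TBX5) and rose to 2808 (TBX4). In EV against Ctl they fell to 17. They fell to 164 (TBX2 against TBX3), 76 (TBX2 against TBX4) and 415 (TBX2 against TBX5). They also fell to 110 (TBX3 against TBX4) and 34 (TBX3 against TBX5), and rose to 6534 (TBX4 against TBX5). Members called were 1, 0, 2 and 0 for TBX2 to TBX5 against controls, 0 in TBX2 against TBX3, TBX4 and TBX5 and in TBX3 against TBX4, 1 in TBX3 against TBX5 and 5 in TBX4 against TBX5. The share of calls that were higher became 79.1%, 100%, 98.8% and 40.7% for TBX2 to TBX5, from 52.2%, 57.0%, 53.5% and 51.7%. In EV against Ctl it became 94.1% from 73.3%, and in the pairs of TBX groups it was 93.9% (TBX2 and TBX3), 67.1% (TBX2 and TBX4), 93.7% (TBX2 and TBX5), 9.09% (TBX3 and TBX4), 52.9% (TBX3 and TBX5) and 99.8% (TBX4 and TBX5). The median of all genes moved to 0.20 in EV against Ctl, and to -0.25, 0.32, -0.34, 0.23 and 0.57 in TBX2 against TBX4, TBX2 against TBX5, TBX3 against TBX4, TBX3 against TBX5 and TBX4 against TBX5.

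With EV alone, members called were 3 for TBX3 and 1 for TBX5 (DUSP5), and with Ctl alone TBX5 had 1192 genes. Among the members called, Ctl alone lost DUSP5 and gained DUSP1 with TBX2. It lost DUSP10 with TBX3 and TBX5, and DUSP5 with TBX4. The share of ENSG00000266658 as a covariate gave 800 genes for TBX4, 2 members for TBX2 against TBX4 and 22 genes for TBX4 against TBX5. An FDR of 0.05 gave 1239 genes for TBX5, 31 for EV against Ctl, 1264, 1247, 943, 739 and 38 for TBX2 against TBX4, TBX2 against TBX5, TBX3 against TBX4, TBX3 against TBX5 and TBX4 against TBX5, and 0 members for the first 2 of these. DESeq2 gave 30 genes for EV against Ctl and 0 members for TBX2 against TBX5. Without a filter, EV against Ctl had 129 genes and 1 member, TBX2 against TBX4 had 0 members and TBX4 against TBX5 had 154 genes. The pair of groups alone gave 0 members for TBX2 against TBX4, 1091 genes and 0 members for TBX2 against TBX5, and 741 genes for TBX3 against TBX5. The cause of these shifts was not tested.

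With each library left out in turn, members called ranged from 1 to 3 for TBX2, 2 to 5 for TBX3, 1 to 4 for TBX5, 0 to 1 for TBX2 against TBX4, 0 to 2 for TBX2 against TBX5, 4 to 5 for TBX2 against TBX3 and 2 to 5 for TBX3 against TBX5. The lowest for TBX3 came without TBX3 replicate c, the lowest for TBX5 without TBX5 replicate c, and that for TBX2 without TBX2 replicate a or c. TBX2 against TBX4 had 0 without TBX2 replicate c or TBX4 replicate a or c, TBX2 against TBX5 had 0 without TBX2 replicate a or TBX5 replicate b or c and 2 without TBX5 replicate a, and TBX3 against TBX5 had 5 without TBX5 replicate b. Genes called ranged from 1223 to 2249 for TBX4, 1067 to 1835 for TBX5, 22 to 230 for EV against Ctl, 1180 to 1931 for TBX2 against TBX4, 857 to 1464 for TBX3 against TBX4 and 17 to 100 for TBX4 against TBX5. They were lowest without TBX4 replicate b in both comparisons of TBX4 with controls and TBX2, without TBX5 replicate c for TBX5 and for TBX4 against TBX5, without TBX3 replicate b for TBX3 against TBX4 and without Ctl replicate b for EV against Ctl, which was highest without Ctl replicate c.

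Values changed sign as follows, all of them uncalled except SPRY4 with TBX5, a called rise of 0.29 that became -0.0485 by library totals. DUSP6 with TBX2 was -0.0096 without a filter and -0.0075 against EV alone, and DUSP6 with TBX4 was -0.0405 against EV alone. DUSP1 with TBX4 was 0.23 by library totals, 0.28 against Ctl alone and 0.0120 in 1 fit, and with TBX5 it was 0.15 against Ctl alone. DUSP16 with TBX4 was 0.23 by library totals and 0.0064 with the covariate. By library totals, DUSP6 with TBX5 was -0.17 and SPRY2 in EV against Ctl was 0.10. In EV against Ctl, DUSP16 was -0.0087 without a filter and -0.0005 with at least 10 counts in every library, and SPRED1 was -0.0133 with the covariate. With a library left out, DUSP6 ran from -0.0073 to 0.0786 with TBX2 and from -0.0357 to 0.0396 with TBX4, DUSP1 from -0.1486 to 0.0572 and DUSP16 from -0.0783 to 0.012 with TBX4, and, in EV against Ctl, DUSP10 from -0.0703 to 0.0938, DUSP16 from -0.0883 to 0.0677 and SPRED1 from -0.0346 to 0.0641.

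The replicate letters a, b and c did not pair the libraries. Deviations from the group means had a mean correlation of 4e-04 over 45 pairs with the same letter (-0.10 to 0.16) and of -2e-04 between letters. With the letter as a replicate block, EV against Ctl had 31 genes called in place of 60, and the members called were as many as without it in every comparison. At 1 to 17 counts per library, DUSP8 is limited by depth.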
